A study of Homo sapiens with 30 samples.

Results

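The transcripts of 10 genes that drive or restrain passage from G1 into S phase were analysed in SH-EP neuroblastoma cells: CDK2, CDK4, CDK6, CCND1, CCND3, CCNE1, CCNE2, CCNA2, CDKN1B, and CDC25A. They were chosen by symbol from the 26228 genes of the deposited expression table, and all 10 passed the filter of a mean of at least 1 FPKM (fragments per kilobase of transcript, scaled to the fragments mapped in each library). SH-EP is an established neuroblastoma cell line. Parental SH-EP cells and 4 derivatives that carry a retroviral human MYCN transgene (WT, T58A, S62A, or T58A S62A, the last with both substitutions) were treated for 6 hours with DMSO or with 1 μM CYC065, an inhibitor of CDK2 and CDK9, which gave 10 groups of 3 libraries. Nothing in the labels says that the 3 came from separate cultures, so p-values measure only the spread between these libraries. Each MYCN allele is represented by 1 line, so allele and line cannot be told apart. The transgene is driven by an exogenous promoter, not by that of MYCN.

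Passage through G1 is driven by cyclin-dependent kinases, which are inactive until a cyclin binds. CDK4 and CDK6 pair with D-type cyclins and begin to phosphorylate the retinoblastoma protein, after which released E2F factors switch on the genes for cyclin E, cyclin A, and the DNA replication machinery, and CDK2 takes over with those cyclins. The inhibitor p27, encoded by CDKN1B, holds cyclin-CDK2 complexes in check, and the phosphatase CDC25A removes inhibitory phosphates from CDK2. MYC family proteins are known regulators of several of these genes, which is the question that the comparison of MYCN lines with SH-EP addresses, whereas CYC065 targets CDK2 itself and, through CDK9, transcription.

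MYCN was listed at 0 FPKM in all 6 parental libraries, and its DMSO means were 13.5 for T58A S62A, 12.9 for WT, 8.52 for T58A, and 5.72 for S62A. Of the adrenergic neuroblastoma markers, PHOX2A was at 0 in 30 libraries and DBH in 29 of 30, but GATA2 was detected in every library (15.2 FPKM in SH-EP in DMSO) and TH and ISL1 were at 0 in 5 and 1. All 6 mesenchymal markers were detected in every library and in DMSO were lower in every MYCN library than in the SH-EP mean, FN1 by the largest ratio (303 FPKM in SH-EP, 27.03 to 55.001 in the MYCN lines), and their part in the differences between lines was not tested. Relative depth, read from the spacing of low FPKM values, was 0.470 to 1 in DMSO and 0.293 to 0.554 with CYC065, where 1 is the deepest library. ERCC spike-ins, synthetic RNAs added by cell number, made up 1.99% to 2.29% of all FPKM in SH-EP DMSO libraries and 3.16% to 9.36% in the MYCN lines, the highest values being those of S62A. Their share was 2.70% to 3.78% in SH-EP and 4.12% to 15.2% in the MYCN lines with CYC065. All 6 SH-EP libraries carry an index that a MYCN-line library also carries, so a difference between sequencing pools cannot be told apart from one between SH-EP and the MYCN lines. In such bulk samples, fewer cells of a type and less RNA per cell cannot be told apart either.

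RefSeq promoters (GRCh38.p14, windows of 300 bases around the start) were examined for 7 of the 10 genes, at 10 starts, and not for CDK2, CCNE2, and CCND1. They were searched on both strands for CACGTG, the canonical E-box bound by MYC family proteins, and for 4 E2F sequences (TTTCCCGC, TTTCGCGC, TTTGCCGC, and TTTGGCGC). The CDK4 promoter held 3 E-boxes, with first bases 216, 196, and 101 bases before the start. Of all 35116 RefSeq promoters, 7.26% held at least 1 E-box and 0.0940% held 3 or more. It is shown because CDK4 is the only one of these 7 genes with E-boxes upstream of the start, with the E-boxes in capitals, at chr12:57752394-57752538 on the minus strand.
CDK4: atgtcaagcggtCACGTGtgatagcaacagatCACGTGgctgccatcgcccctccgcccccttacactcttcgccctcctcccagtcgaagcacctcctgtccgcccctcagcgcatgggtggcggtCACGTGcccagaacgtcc
One of the CDK6 starts had an E-box 31 bases into the transcript. The CDC25A promoter held an E2F sequence whose first base lies 44 bases before the start, in capitals below, at chr3:48188442-48188473 on the minus strand, and 3.31% of all promoters held any of the 4.
CDC25A: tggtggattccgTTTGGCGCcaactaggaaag
The promoters of CCNE1, CCNA2, CCND3, and CDKN1B held neither kind of sequence in this window. A match to these letters is a description of the sequence, and binding was not measured here.

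In SH-EP cells in DMSO, the 10 mRNAs spanned from 121 FPKM for CDK4 to 4.13 FPKM for CCNE1. CDK4 (120.0, 121, and 122 FPKM) was followed by CCND1 (86.1, 94.6, and 95.7 FPKM), the more abundant of the D-type cyclins examined, and by CCNA2, the cyclin of S phase and G2, at 58.8 ± 2.21 FPKM (mean ± SD, n = 3). CCND3 at 38.5 ± 0.708 FPKM and CDK2 at 38.3 ± 0.431 FPKM had overlapping ranges. All other neighbours in the order were apart, from CDK6 at 25.0 ± 1.91 through CCNE2 at 15.3 ± 0.437, CDC25A at 12.1 ± 0.318, and CDKN1B at 10.1 ± 0.528 to CCNE1. CCND2, the remaining D-type cyclin, was listed at 0 in all 6 SH-EP libraries, and CDKN2A and CDKN2B, which encode INK4 inhibitors of CDK4 and CDK6, in all 30 libraries.

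**Figure D1:**
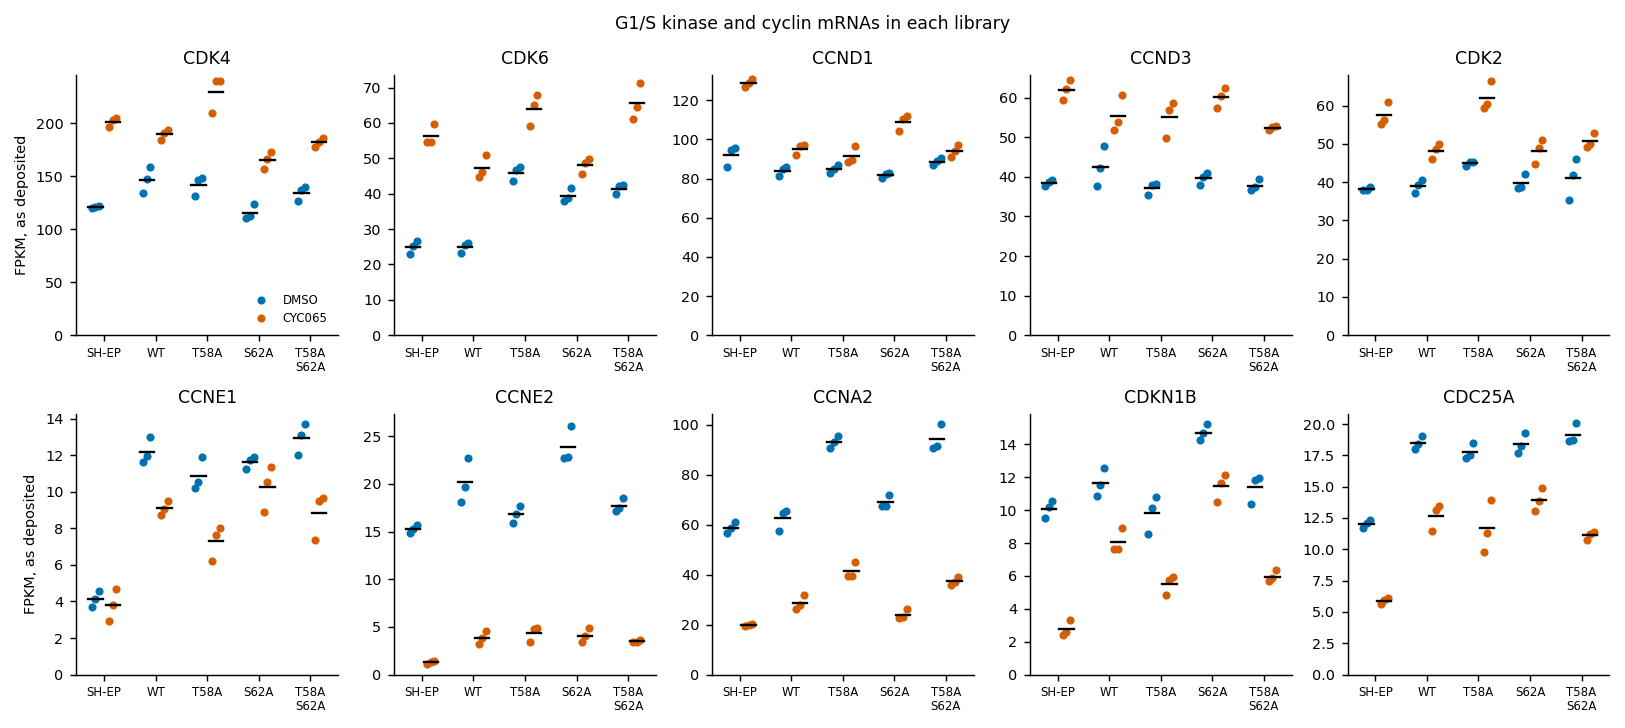
FPKM as deposited (vertical axes, linear from 0) of the 10 genes in each of the 30 libraries, by line, in DMSO (blue) and with 1 μM CYC065 (orange). Points are libraries and bars are group means of 3. In DMSO, CCNE1 lies between 3.70 and 4.57 in SH-EP and between 10.2 and 13.7 in the MYCN lines. CDK6 separates the 3 mutant lines from WT and SH-EP in DMSO only. With CYC065, CDK6 in S62A (45.6 to 49.9) overlaps WT (44.8 to 50.9) and lies below SH-EP (54.5 to 59.7). T58A (59.2 to 67.8) then overlaps SH-EP.

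As deposited, CCNE1, which encodes the cyclin E that activates CDK2 at the G1/S boundary, differed most between the MYCN lines and SH-EP. Its DMSO libraries held 3.70, 4.11, and 4.57 FPKM in SH-EP, against 11.6, 11.96, and 13.0 in WT, 10.2, 10.53, and 11.9 in T58A, 11.3, 11.7, and 11.9 in S62A, and 11.99, 13.1, and 13.7 in T58A S62A. All 12 MYCN libraries lay above all 3 of SH-EP, and among the MYCN lines T58A S62A lay above T58A and S62A while WT overlapped all the others. The ratio of means ran from 2.64 in T58A through 2.82 in S62A and 2.95 in WT to 3.14 in T58A S62A, and the log2 change averaged over them was 1.51 ± 0.11 (SE), with an adjusted p of 1.0e-11 by limma.

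As deposited, CDC25A also rose in every MYCN line, with ratios of means from 1.48 in T58A to 1.59 in T58A S62A. Its levels were 11.7, 12.1, and 12.3 FPKM in SH-EP and 17.3 to 20.1 FPKM over the 12 MYCN libraries, without overlap. The mean log2 change was 0.61 ± 0.07 (SE, adjusted p = 3.0e-08, limma). After scaling to spike-ins, CDC25A was instead lower than SH-EP in the mean (-0.63, adjusted p = 0.00032, limma), in WT (-0.64), and in S62A (-1.34). T58A (-0.39) and T58A S62A (-0.16) did not pass the threshold there. CCNE2, the other E-type cyclin, was at 14.8, 15.3, and 15.7 FPKM in SH-EP. All 12 MYCN libraries lay above these values too, and the rise passed the test in WT (log2 change 0.39) and S62A (0.64) but was 0.14 in T58A and 0.21 in T58A S62A, below the threshold. On the spike-in scale, CCNE2 was lower than SH-EP in WT (-0.86), T58A (-0.81), S62A (-1.31), and T58A S62A (-0.62), each past the threshold. Its mean there was -0.90 (adjusted p = 4.9e-06, limma). As deposited, CCNE1, CDC25A, and CCNE2 were the 3 members with every MYCN library above SH-EP, as were 21.8% of the genes tested. No member had every MYCN library below SH-EP, as 16.5% did.

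In DMSO, CDK6 divided the MYCN lines. It was at 22.9, 25.3, and 26.6 FPKM in SH-EP and at 23.3, 25.6, and 25.9 FPKM in WT, whereas its libraries held 43.5, 46.6, and 47.6 FPKM in T58A, 38.0, 38.8, and 41.5 in S62A, and 39.8, 42.1, and 42.3 in T58A S62A. As deposited, WT and SH-EP overlapped, and every mutant library lay above both. Against WT, the log2 change was 0.88 ± 0.07 for T58A, 0.73 ± 0.07 for T58A S62A, and 0.66 ± 0.07 for S62A (SE, adjusted p of 2.8e-09, 3.1e-08, and 1.6e-07, limma). After scaling to spike-ins, T58A (1.18) and T58A S62A (1.15) still differed from WT, but S62A did not (-0.04, adjusted p = 0.87). Against SH-EP on that scale, T58A (-0.07, adjusted p = 0.75) and T58A S62A (-0.10, adjusted p = 0.66) did not pass the threshold (limma). WT (-1.25, adjusted p = 2.9e-06) and S62A (-1.29, adjusted p = 8.0e-07) were lower than SH-EP there (limma).

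In DMSO, as deposited, CCNA2 was highest in the lines T58A and T58A S62A. Its means in DMSO were 58.8 ± 2.21 FPKM in SH-EP, 62.5 ± 4.35 in WT, 68.9 ± 2.57 in S62A, 93.0 ± 2.32 in T58A, and 94.1 ± 5.39 in T58A S62A (SD, n = 3 each). As deposited, the lines T58A and T58A S62A overlapped with each other and lay above all libraries of the other 3 lines. Their log2 changes against WT were 0.57 ± 0.07 and 0.59 ± 0.07 (SE, adjusted p of 1.5e-06 and 7.8e-07, limma), and they stayed past the threshold on the spike-in scale at 0.88 and 1.01. On that scale, T58A (-0.29, adjusted p = 0.11) and T58A S62A (-0.15, adjusted p = 0.41) did not pass the threshold against SH-EP (limma). Against WT, S62A, at 0.14, did not pass the threshold as deposited and was lower, at -0.555, on the spike-in scale. Against SH-EP, S62A was higher as deposited, at 0.23 ± 0.07 (SE, adjusted p = 0.0070, limma). It was lower than SH-EP on the spike-in scale, at -1.72 (adjusted p = 3.7e-10, limma).

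As deposited, the remaining kinases and D-type cyclins differed little. On that scale, CDK2 passed the threshold only in T58A, at 44.4 to 45.2 FPKM against 38.0 to 38.8 in SH-EP (log2 change 0.23 ± 0.07 against SH-EP). Against WT, CDK2 in T58A was at 0.20 with an adjusted p of 0.040, and this call was lost when any of the 6 libraries of these 2 groups but WT DMSO library 2 was left out (0.17 to 0.21, adjusted p 0.0724 to 0.135). CDK4 rose in WT (0.28), T58A (0.23), and T58A S62A (0.15) and was at -0.07 in S62A, which was lower than WT by a log2 change of -0.34 ± 0.06 (SE, adjusted p = 0.00020, limma). CCND1 fell slightly in WT, T58A, and S62A (-0.13, -0.12, and -0.17), and the mean over the 4 lines was -0.12 ± 0.03 (SE, adjusted p = 0.0041), or -0.09 with an adjusted p of 0.0558 without SH-EP DMSO library 3. CCND3 ranged from -0.05 to 0.14 between lines and passed the threshold in none as deposited. After scaling to spike-ins, CDK2, CDK4, CCND1, and CCND3 were lower than SH-EP in every MYCN line, each past the threshold (limma). Their means over the 4 lines were -1.15, -1.10, -1.37, and -1.22, beside a median of -1.17 over all genes.

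As deposited, CDKN1B rose against SH-EP only in S62A, the line with the lowest MYCN mRNA, whereas on the spike-in scale it was lower there (-1.40, adjusted p = 1.0e-07, limma). It was at 9.52, 10.2, and 10.6 FPKM in SH-EP and 14.3, 14.7, and 15.2 in S62A, which lay above every library of the other 4 lines. Its log2 change in S62A was 0.54 ± 0.11 against SH-EP (SE, adjusted p = 0.00016) and 0.34 ± 0.11 against WT (adjusted p = 0.0239, limma). The second of these was lost (0.29 to 0.34, adjusted p 0.0527 to 0.114) without WT DMSO library 1 or 2 or S62A DMSO library 2 or 3, and on the spike-in scale it was -0.36 with an adjusted p of 0.0882. The mean over the 4 lines was 0.22 (adjusted p = 0.0288), or 0.23 and 0.18 (adjusted p 0.0658 and 0.146) without SH-EP DMSO library 2 or 3.

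**Figure D2:**
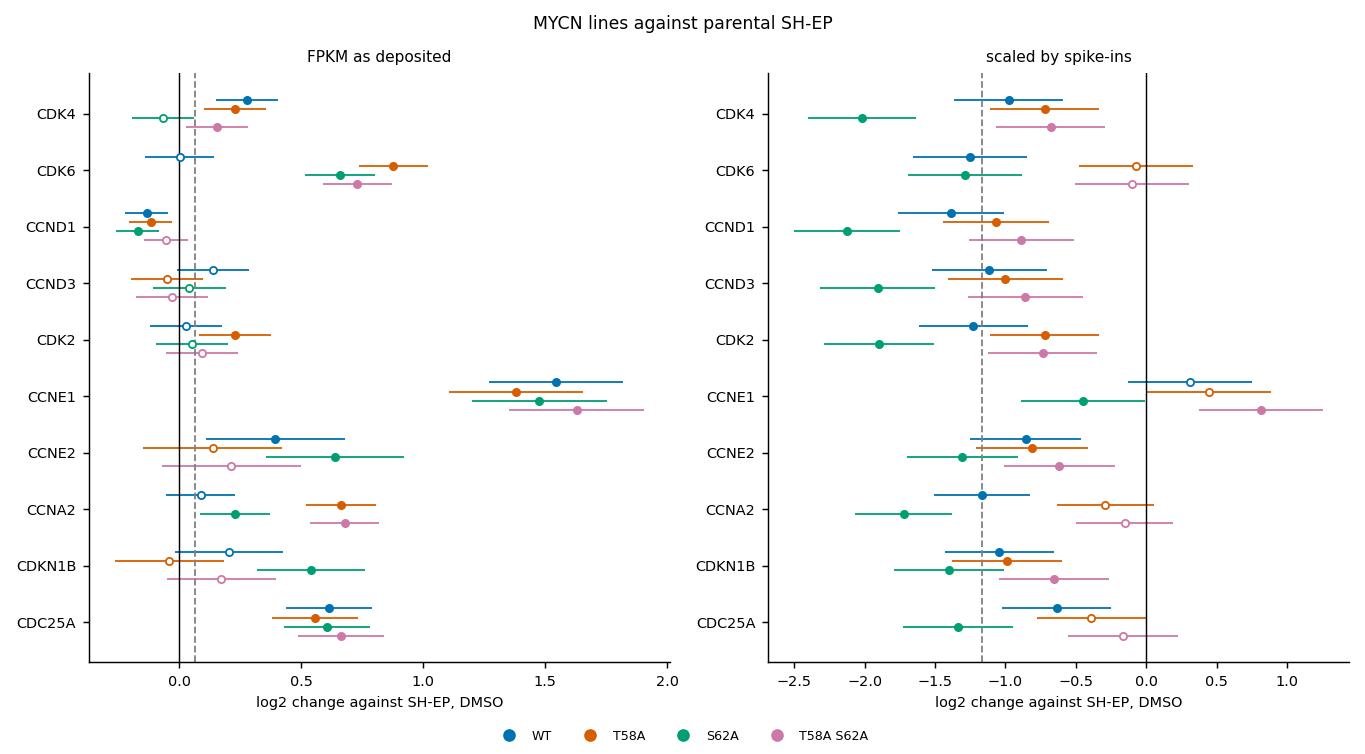
Log2 change of each gene in DMSO between a MYCN line and SH-EP, with FPKM as deposited (left) and scaled by spike-ins (right). Points are estimates with 95% confidence intervals from limma, filled where the adjusted p is under 0.05, and the dashed line is the median over all genes tested (0.06 on the left, -1.17 on the right). Within each line, CCNE1 lies to the right of the other genes on both scales.

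Against SH-EP, 5 of the 10 genes passed the threshold in WT and 7 in T58A, where 54.2% and 54.2% of all 11575 genes tested did. The counts were 7 for S62A and 5 for T58A S62A, beside 54.3% and 55.3%. For the mean of the 4 MYCN lines, 7 genes were higher and 1 lower, beside 34.6% and 26.3% of all genes. Against WT, 3 genes passed for T58A and 3 for S62A, beside 23.6% and 24.1%, and 2 for T58A S62A, beside 23.7%. Scaling to spike-ins shifted the median change over all genes against SH-EP from 0.06 to -1.17. On that scale, none of the 10 was higher in the mean and 9 were lower, beside 1.10% and 91.2% of all genes. CCNE1, at 0.28 (adjusted p = 0.118, limma), was the member with no call in the mean. By line, CCNE1 was higher than SH-EP in T58A S62A (0.82, adjusted p = 0.0017) and lower in S62A (-0.45, adjusted p = 0.048, limma). It passed the threshold in neither WT (0.31) nor T58A (0.45). Relative to the median of all genes, CCNE1 was the highest of the 10 on both scales.

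With CYC065, 5 of the 10 mRNAs fell more than the median of all genes in the spike-in scaled mean, and 5 fell less. CCND1 lay close to that median, and differences from it were not tested. On the spike-in scale, which reads level per cell, the median log2 change of all genes was -1.20. In the mean of the 5 lines, the log2 change was -3.83 ± 0.09 (SE) for CCNE2, -2.68 ± 0.07 for CCNA2, -2.22 ± 0.08 for CDKN1B, -2.004 ± 0.085 for CDC25A, and -1.70 ± 0.10 for CCNE1. It was -1.09 ± 0.08 for CCND1, -0.95 ± 0.08 for CDK2, -0.80 ± 0.09 for CCND3, -0.79 ± 0.08 for CDK4, and -0.64 ± 0.09 for CDK6. As deposited, where FPKM read a share of the mRNA pool, the latter 5 rose instead (CDK6 0.70, CDK4 0.55, CCND3 0.54, CDK2 0.39, and CCND1 0.25), and the former 5 fell (CCNE2 -2.52, CCNA2 -1.34, CDKN1B -0.89, CDC25A -0.67, and CCNE1 -0.37). Each of these mean changes passed the threshold on its scale.

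CCNE2 was the most depleted. As deposited, it went from 14.8, 15.3, and 15.7 FPKM to 1.12, 1.35, and 1.46 in SH-EP, and from 18.0, 19.7, and 22.8 to 3.20, 3.84, and 4.57 in WT. In T58A it went from 15.9, 16.9, and 17.7 to 3.38, 4.75, and 4.91, in S62A from 22.7, 22.8, and 26.1 to 3.37, 4.01, and 4.86, and in T58A S62A from 17.2, 17.4, and 18.5 to 3.44, 3.46, and 3.64. The ranges were apart in all 5 lines, and the CYC065 level was 0.0856 of the DMSO level in SH-EP and 0.171 to 0.259 of it in the MYCN lines. CCNE1, by contrast, kept 0.669 to 0.924 of its deposited level, and its DMSO and CYC065 ranges overlapped in SH-EP and S62A. Its mean with CYC065 remained 7.29 to 10.3 FPKM in the MYCN lines against 3.81 ± 0.871 in SH-EP (SD, n = 3), and the MYCN lines were again apart from SH-EP. On the spike-in scale this order was lost, with CYC065 levels of 3.45 to 6.67 in SH-EP, 3.27 to 4.08 in WT, 4.35 to 5.84 in T58A, 2.64 to 3.33 in S62A, and 6.56 to 9.23 in T58A S62A, so that only S62A was apart from SH-EP, and below it.

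CCNA2 fell from 58.8 to 19.8 FPKM in SH-EP and from 93.0 to 41.4 FPKM in T58A. The CYC065 level was 0.337 to 0.458 of that in DMSO across lines. CDC25A, which is a short-lived activator of CDK2, fell from 12.1 to 5.87 FPKM in SH-EP and to 11.1 to 13.9 FPKM in the MYCN lines. As deposited, CDK2 itself stood at 55.1, 56.3, and 61.0 FPKM with CYC065 in SH-EP, above its 38.0 to 38.8 FPKM in DMSO. Its deposited ranges were likewise apart, and higher with CYC065, in each of the other lines. On the spike-in scale, its ranges were apart but lower with CYC065 in every line. The CYC065 level was then 0.380 (WT) to 0.631 (SH-EP) of that in DMSO. CDK9, the other target of CYC065, changed by -1.69 in the spike-in scaled mean and by -0.35 as deposited.

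In the mean of the 5 lines, CDK6 fell least of the 10, but not in each line. In S62A on the spike-in scale, CCND3 (-0.90), CDK4 (-0.98), and CCND1 (-1.09) fell less, and in T58A so did CDK4 (-0.50) and CCND3 (-0.63). Scaled to spike-ins, it was at 75.1, 77.3, and 85.8 in SH-EP in DMSO and at 63.8, 78.6, and 84.9 with CYC065, and its change there was -0.08 (adjusted p = 0.73). The ranges also overlapped in T58A S62A (-0.42, adjusted p = 0.057), whereas CDK6 fell in S62A (-1.21), WT (-0.76), and T58A (-0.71). As deposited it went from 22.9 to 26.6 FPKM up to 54.5 to 59.7 FPKM in SH-EP, a ratio of 2.26, and the smallest ratio was 1.22 in S62A.

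**Figure D3:**
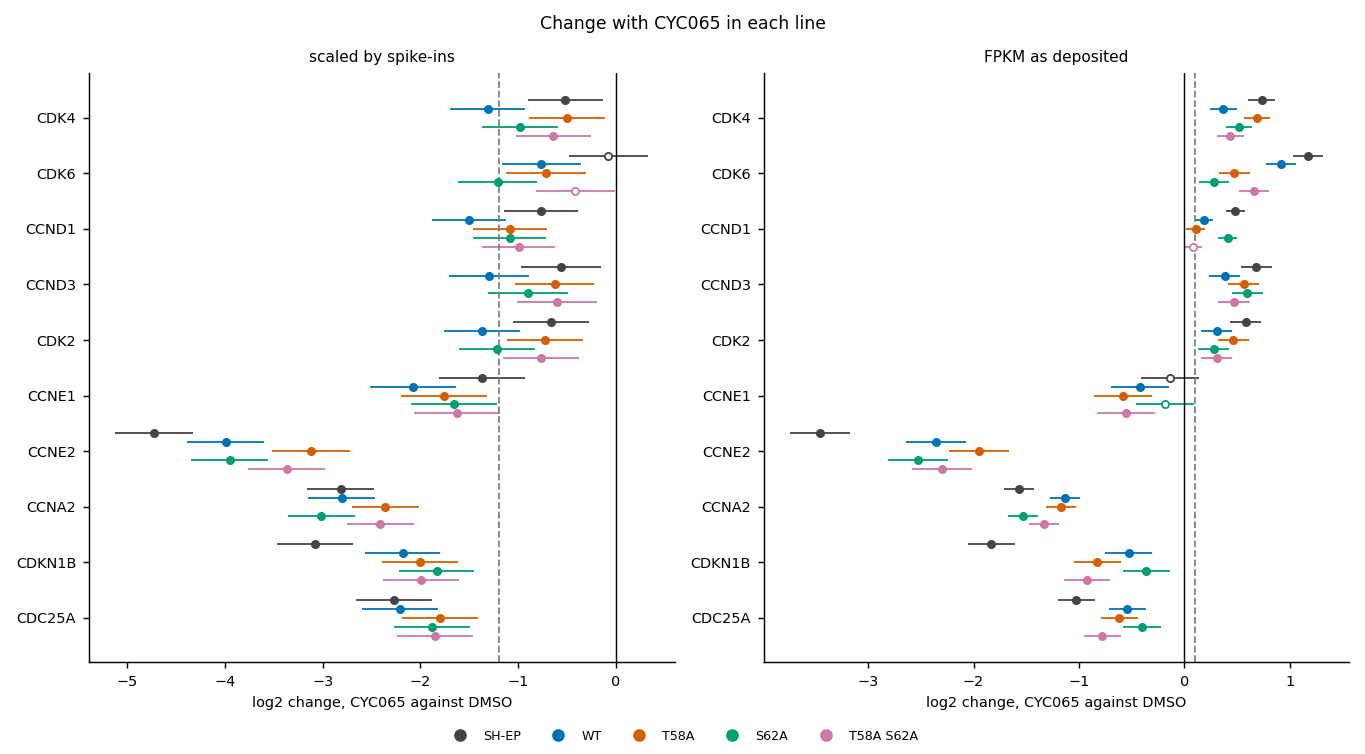
Log2 change with CYC065 against DMSO of each gene in each of the 5 lines, scaled by spike-ins (left) and as deposited (right). Points are limma estimates with 95% confidence intervals, filled where the adjusted p is under 0.05, and the dashed line is the median of all genes tested in the mean of the lines (-1.20 on the left, 0.10 on the right). CDK4, CDK6, CCND1, CCND3, and CDK2 lie to the right of 0 as deposited and the other 5 to its left.

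On the spike-in scale, 9 of the 10 genes passed the threshold in SH-EP and 9 in T58A S62A, where 76.6% and 78.1% of all genes did, and 10 each in T58A (85.5%), S62A (91.2%), and WT (94.5%). In the mean of the lines, 0 were higher and 10 were lower, beside 1.59% and 94.4% of all genes. As deposited, 5 were higher and 5 lower, beside 46.9% and 39.8%. As deposited, 5 genes (CDK2, CDK4, CDK6, CCND1, and CCND3) had every CYC065 library above every DMSO library in all 5 lines, as did 27.4% of genes, and 4 genes (CCNE2, CCNA2, CDKN1B, and CDC25A) had them below in all 5 lines, as did 24.4%. The CYC065 libraries were shallower than most DMSO libraries, and the part of depth in these changes was not tested.

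The response of CDKN1B differed between SH-EP and every MYCN line. As deposited, CDKN1B went from 9.52, 10.2, and 10.6 FPKM to 2.43, 2.60, and 3.34 in SH-EP, but only from 10.9, 11.5, and 12.6 to 7.63, 7.66, and 8.93 in WT and from 14.3, 14.7, and 15.2 to 10.52, 11.7, and 12.2 in S62A. In T58A it went from 8.58, 10.2, and 10.8 to 4.85, 5.73, and 5.94, and in T58A S62A from 10.4, 11.8, and 11.97 to 5.66, 5.85, and 6.36. All 12 CYC065-treated MYCN libraries lay above the 3 of SH-EP. The level kept was 0.276 in SH-EP against 0.523 in T58A S62A, 0.559 in T58A, 0.693 in WT, and 0.778 in S62A. Scaled to spike-ins, the groups were apart in DMSO instead, at 32.1 ± 2.2 in SH-EP and means of 12.2 to 20.4 in the MYCN lines, and close with CYC065, at 3.78 ± 0.982 and means of 3.33 to 5.05.

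In the interaction of CYC065 with line, on the spike-in scale, CDKN1B fell less than in SH-EP by a log2 difference of 1.25 in S62A, 1.09 in T58A S62A, 1.08 in T58A, and 0.90 in WT (SE 0.27 each, adjusted p of 0.00514, 0.0114, 0.0226, and 0.0347, limma). The mean over the 4 lines was 1.08 ± 0.21 (SE, adjusted p = 0.0014), and as deposited it was 1.17 (adjusted p = 8.3e-08). CCNE2 also fell less in the MYCN lines, with a mean difference of 1.12 ± 0.22 (SE, adjusted p = 0.0012), or 1.17 as deposited (adjusted p = 3.1e-06). Scaled to spike-ins, its DMSO mean was 48.6 in SH-EP and 19.9 to 31.9 in the MYCN lines. With CYC065 it was 1.74 in SH-EP, 1.60 in WT, 1.17 in S62A, 3.12 in T58A, and 3.01 in T58A S62A. By line, CCNE2 passed the threshold in T58A (1.61) and T58A S62A (1.36) and stood at 0.73 (adjusted p = 0.0559) in WT and 0.78 (adjusted p = 0.107) in S62A. With the scaling taken from the 21 spike-ins that average 50 FPKM or more, both mean differences kept their direction but lost the call, at 0.94 (adjusted p = 0.0832) for CDKN1B and 0.99 (adjusted p = 0.0536) for CCNE2. CDKN1B then passed the threshold in no line (0.81 to 1.20, adjusted p 0.115 to 0.435), and CCNE2 lost the call in T58A S62A (1.12, adjusted p = 0.14). The calls of CDKN1B by line also depended on single libraries. In WT, the call was lost at 0.82 to 1.03 (adjusted p 0.0581 to 0.0793) without WT DMSO library 2, WT CYC065 library 1 or 3, any SH-EP DMSO library, or SH-EP CYC065 library 1. In T58A, it was lost at 0.88 to 1.07 (adjusted p 0.0514 to 0.0927) without T58A DMSO library 1, T58A CYC065 library 1 or 2, SH-EP DMSO library 1, or SH-EP CYC065 library 3, and in T58A S62A at 0.91 (adjusted p = 0.0545) without SH-EP CYC065 library 3.

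On the spike-in scale there were 3 calls in the opposite direction, and none in the mean of the 4 lines. CDK6 fell more in S62A than in SH-EP by a log2 difference of -1.13 ± 0.28 (SE, adjusted p = 0.0151). In WT, CDK4 (-0.80, adjusted p = 0.0426) and CCND1 (-0.73, adjusted p = 0.0494) passed the threshold narrowly, and CDK2, CCND3, CCNE1, and CDK6 had differences of -0.69 to -0.73 that did not. The median over all genes in WT was -0.52. The WT calls were lost in 10 of 30 leave-one-out fits for CDK4 (-0.81 to -0.59) and in 19 of 30 for CCND1 (-0.77 to -0.57). As deposited, the mean differences of CDK6 (-0.59), CCND1 (-0.29), CDK2 (-0.24), and CDK4 (-0.23) passed the threshold, as did those of CCNA2 (0.28) and CDC25A (0.44) in the opposite direction.

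**Figure D4:**
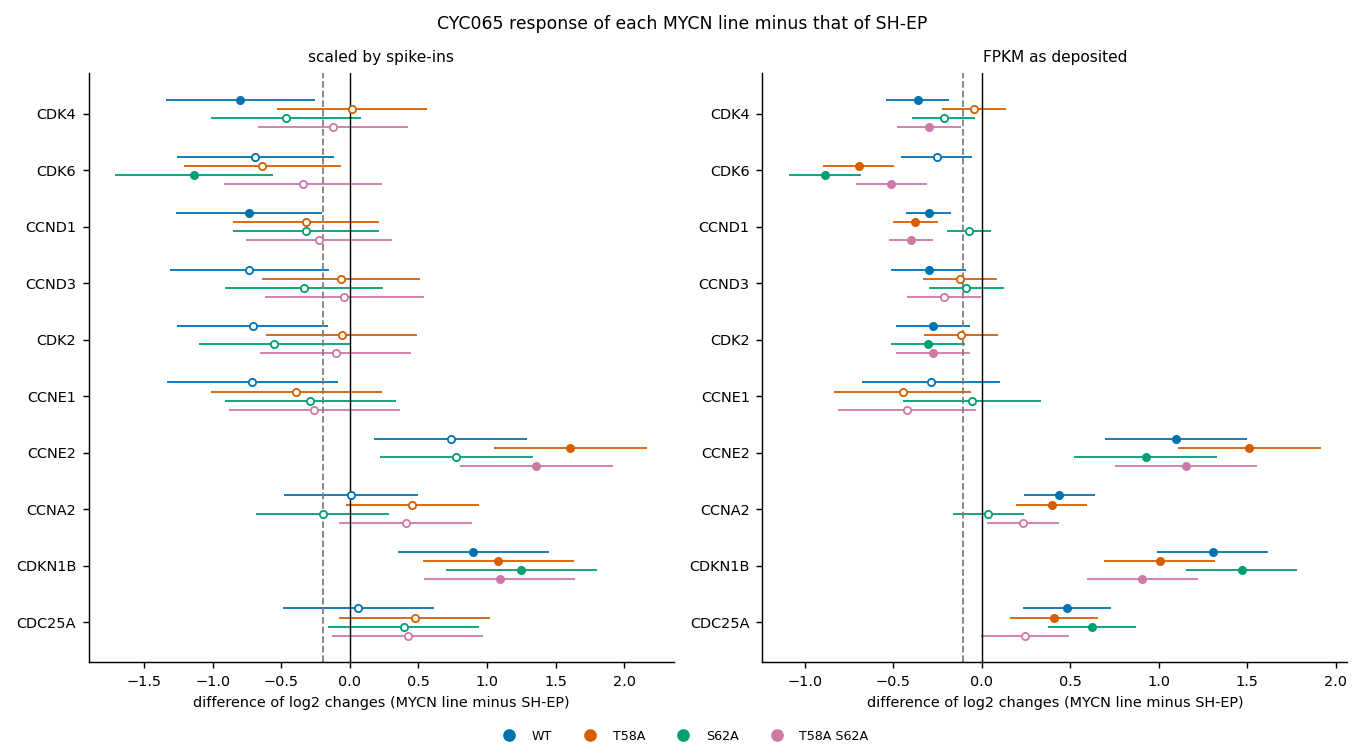
Log2 change with CYC065 in each MYCN line minus that in SH-EP, scaled by spike-ins (left) and as deposited (right). Points are limma estimates with 95% confidence intervals, filled where the adjusted p is under 0.05, and the dashed line is the median of all genes in the mean of the 4 lines (-0.20 on the left, -0.11 on the right). CDKN1B and CCNE2 lie to the right of 0 in all 4 lines on both scales.

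Counted by line on the spike-in scale, 3 genes passed the threshold of the interaction in WT, beside 18.1% of all genes, and 2 each in T58A, S62A, and T58A S62A, beside 2.59%, 4.95%, and 5.41%. In the mean of the 4 lines, 2 were higher and 0 lower, beside 4.17% and 1.93%. As deposited, 4 were higher and 4 lower, beside 13.0% and 20.3%.

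Ratios of paired family members within a library do not depend on the scaling. CCNE2 exceeded CCNE1 in SH-EP in DMSO, with log2 ratios of 1.78, 1.90, and 2.002, and by less in every MYCN line, with means of 0.45 in T58A S62A, 0.63 in T58A, 0.72 in WT, and 1.04 in S62A. The log2 difference was -1.18 (12 libraries against 3, exact permutation test, two-sided, p = 0.0022, the smallest that 455 splits allow, adjusted p = 0.0044 over 8 ratio tests). In each ratio test of the MYCN lines against SH-EP, libraries were exchanged without regard to line. Differences among the MYCN lines therefore enter these p-values. With CYC065 the order turned, and CCNE1 exceeded CCNE2 in all 15 libraries, with mean log2 ratios from -1.53 in SH-EP to -0.76 in T58A. The change within lines was -2.18 (two-sided exact permutation test of treatment inside each line, p = 6.25e-07, adjusted p = 2.5e-06), and 3200000 arrangements allow no smaller p.

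The ratio of CDKN1B to CDK2, the inhibitor over its kinase, changed with CYC065 by -1.297 within lines (exact permutation test, p = 6.25e-07, adjusted p = 2.5e-06). In SH-EP its log2 value went from -1.93 ± 0.072 to -4.38 ± 0.288, and in S62A from -1.43 ± 0.032 to -2.08 ± 0.200 (SD, n = 3). It did not differ past the threshold between the MYCN lines and SH-EP in DMSO (0.12, exact permutation test, p = 0.552). CCND1 over CCND3 changed with CYC065 by -0.29 (exact permutation test, p = 1.25e-06, adjusted p = 3.3e-06) and was not past the threshold in the MYCN lines (-0.14, exact permutation test, p = 0.0857, adjusted p = 0.114). CDK6 over CDK4 was the ratio with no call in either comparison, at 0.42 between lines (exact permutation test, p = 0.141, adjusted p = 0.161) and 0.15 with CYC065 (exact permutation test, p = 0.0695, adjusted p = 0.111). Its mean went from -2.28 to -1.84 in SH-EP, from -2.56 to -2.01 in WT, and from -1.70 to -1.48 in T58A S62A, but from -1.63 to -1.84 in T58A and from -1.55 to -1.78 in S62A.

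**Figure D5:**
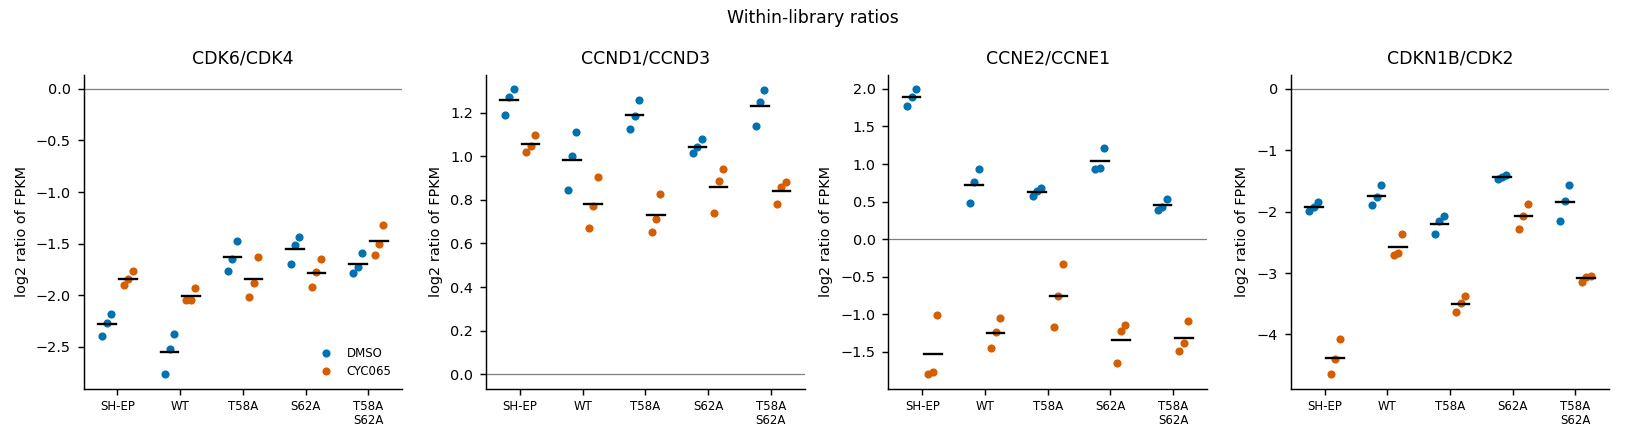
Log2 ratio of FPKM within each library for CDK6/CDK4, CCND1/CCND3, CCNE2/CCNE1, and CDKN1B/CDK2, by line, in DMSO (blue) and with CYC065 (orange), with group means as bars and 0 marked by a grey line where it lies in range. CCNE2/CCNE1 lies above 0 in every DMSO library and below 0 in every CYC065 library.

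The other genes of the pathway were read from 8 lists of 62 genes, of which 57 passed the filter. In the MYCN lines against SH-EP, as deposited, 35 of the 57 rose and 6 fell, with a median log2 change of 0.27 beside 0.06 over all genes, of which 34.6% rose and 26.3% fell. The counts by list that follow stand beside those same shares. Of 17 S phase E2F targets, 14 rose and 0 fell (median 0.36), led by MCM7, a subunit of the replicative helicase (0.66 ± 0.04, SE), and PCNA, the polymerase clamp (0.53 ± 0.04). Of 10 E2F and DP factors, 7 rose and 1 fell (median 0.49), led by E2F5 (1.82 ± 0.18) and E2F2 (0.65 ± 0.13). E2F5 was the single pathway gene that was higher on the spike-in scale as well (0.60), where the other 56 were lower. Unlike CDKN1B (0.22), the 3 CDK inhibitors of the lists that passed the filter fell, CDKN2D (-0.64 ± 0.15), CDKN2C (-0.54 ± 0.06), and CDKN1A, which encodes p21 and was named after its values were seen (-0.11).

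Of the 7 CDK phosphatases and kinases, 4 rose and 1 fell, led by CDK7, the kinase that activates other CDKs (0.63), and PKMYT1, an inhibitory kinase of CDK1 (0.61). Of the 8 genes of turnover, 4 rose and 0 fell, led by SKP2, the ubiquitin ligase subunit that targets p27 (0.43), and CKS2 (0.40). Of the 3 pocket proteins, RBL1 rose (0.42 ± 0.10), and RBL2 was at -0.08 (adjusted p = 0.40). Of 9 G2/M genes, 5 rose and 1 fell, led by MYBL2 (0.90) and AURKA (0.62). Neither of the other G1/S cyclins, CCND2 and CCNA1, passed the filter.

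With CYC065 on the spike-in scale, 55 of the 57 fell and 2 rose, with a median of -1.35 beside -1.20 over all genes, of which 94.4% fell and 1.59% rose. The number that fell in each list is thus no result about the list, and the medians describe them. The 2 that rose, named after their values were seen, were CDKN1A (0.44) and FBXW7, which encodes a ubiquitin ligase subunit that recognises cyclin E (0.41). As deposited, CDKN1A went from 66.7, 68.0, and 71.5 to 158, 164, and 168 FPKM in SH-EP, and from a mean of 43.2 to 175 FPKM in WT. All 10 E2F and DP factors fell (median -2.05), led by E2F5 (-4.15) and E2F8 (-3.45). All 9 G2/M genes fell (median -1.76), led by AURKA (-3.96) and PLK1 (-2.16). All 17 S phase E2F targets fell as well, but with a median of -0.76, and CDC6 (-2.54) and CDT1 (-2.44), which license replication origins, fell most. As deposited, 13 of these 17 rose and 4 fell, and 1 of the 9 G2/M genes rose and 8 fell, beside 46.9% and 39.8% of all genes, and the difference between these lists was not tested.

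Among the rest, where again 94.4% of all genes fell, all 7 CDK phosphatases and kinases fell, led by CDK7 (-2.87) and CDC25B (-2.45), and 7 of the 8 genes of turnover, led by FZR1 (-3.96) and CUL1 (-2.71). All 3 pocket proteins fell, RBL1 (-1.87) and RBL2 (-1.09). Of the CDK inhibitors, CDKN2C fell (-2.06) and CDKN2D fell (-1.08), whereas as deposited they were at -0.72 and 0.24. In the interaction with line, 4 of the 57 pathway genes were higher and 1 lower on the spike-in scale, beside 4.17% and 1.93% of all genes.

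The genes whose log2(FPKM + 0.1) ran most like that of each member over the 30 libraries were also listed, as a description, since libraries share line, treatment, and depth. CCNE2 was nearest to ZNF146, AURKA, and WAPAL (Pearson r of 0.985, 0.984, and 0.983), and CCNA2 to USP10 and DCLRE1A (0.981 and 0.979). CDC25A was nearest to SMAD6 and CCNB1 (0.965 each), CDKN1B to C22orf29 (0.959), CCNE1 to KCTD15 (0.945), and CDK2 to NUTF2 (0.942). CCND3 was nearest to ALDOA (0.976), CDK4 to EDF1 (0.959), CCND1 to TMEM43 (0.939), and CDK6 to PRPF8 (0.920). No member was among the 3 nearest genes of another.

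In GRCh37 coordinates, with all of the genes protein coding, CDK2 lies on chromosome 12 from 56360565 to 56366573 on the plus strand, CDK4 on chromosome 12 from 58141510 to 58149796 on the minus strand, and CDKN1B on chromosome 12 from 12838432 to 12875303 on the plus strand. CCNE1 lies on chromosome 19 from 30302898 to 30315219 on the plus strand, CCNE2 on chromosome 8 from 95891998 to 95908906 on the minus strand, and CCNA2 on chromosome 4 from 122737599 to 122745038 on the minus strand. CDK6 lies on chromosome 7 from 92234235 to 92465887 and CCND3 on chromosome 6 from 41902672 to 42018095, both on the minus strand, CCND1 on chromosome 11 from 69455924 to 69469242 on the plus strand, and CDC25A on chromosome 3 from 48198636 to 48229907 on the minus strand.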

How the data were processed

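RNA-seq was analysed from 30 libraries, grouped by the sample labels. The authors selected poly(A) RNA after adding ERCC spike-ins by cell number, prepared strand-specific libraries, aligned reads to hg19 with HISAT2, and computed FPKM with Cufflinks. The deposited FPKM are not scaled to the spike-ins and carry no read counts, so absolute depth is unknown and no count test was used. Of the table's columns, 0 belonged to no sample here.

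The 11575 genes averaging 1 FPKM or more were tested on log2(FPKM + 0.1) with limma 3.58.1 in R 4.3.3 (lmFit, eBayes with trend, 1 fit over 10 groups), with a Benjamini-Hochberg adjusted p under 0.05 over all genes as the threshold. The pseudocount makes fold changes of weakly expressed genes too small. Lines were compared as deposited, and CYC065 and its interaction with line after scaling each library to the median log2 level of the 55 of 92 spike-ins averaging 1 FPKM or more. Ratios were taken without a pseudocount. The fit was tested on simulated data. Positions are from GENCODE release 44 lifted to GRCh37.

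The members, the 8 lists, and the tests were chosen with earlier results of these data known. Named were all members, MYCN, CDK9, of each list the 2 genes with the largest mean change in each of the main comparisons, and for each member the 3 genes most alike, not all of which are printed. Some items are not reported here. Library numbers only name a library. Alternatives were other pseudocounts, filters, scalings, and groups, a change of at least 1.5-fold, and leave-one-out fits.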

Additional observations from a re-analysis of the deposited data

Results flagged for a closer look

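For 5 of the 10 genes, the response to CYC065 differed between SH-EP and a MYCN line (limma's interaction test, spike-in scale). This number pools the lines, and the matching pooled share of all genes was not computed. Of all genes, 18.1% passed this test in WT and 2.59% to 5.41% in each other MYCN line. For the mean of the MYCN lines, 4.17% of all genes were higher and 1.93% lower. CDKN1B did so in WT (0.90), T58A (1.08), S62A (1.25), T58A S62A (1.09), and their mean (1.08), and CCNE2 in T58A (1.61), T58A S62A (1.36), and the mean (1.12). For both, the positive log2 difference means a smaller fall than in SH-EP. CDK6 fell more in S62A (-1.13), and CDK4 (-0.80) and CCND1 (-0.73) fell more in WT. In these comparisons, the spike-in share differed between the lines, with 13.9% to 15.2% in S62A and 8.02% to 12.3% in WT against 2.70% to 3.78% in SH-EP with CYC065. The calls listed here also passed the threshold as deposited, but most were lost when the scaling was taken from the spike-ins averaging 50 FPKM or more. CDKN1B then passed in no line (adjusted p 0.115 to 0.435) and not in the mean (0.94, adjusted p = 0.0832), CCNE2 not in T58A S62A (1.12, adjusted p = 0.14) or the mean (0.99, adjusted p = 0.0536), and neither CDK4 (-0.90, adjusted p = 0.148) nor CCND1 (-0.84, adjusted p = 0.15) in WT. CCNE2 in T58A (1.73, adjusted p = 0.0103) and CDK6 in S62A (-1.48, adjusted p = 0.0407) kept their calls. Groups of 3 libraries are too small for a test of single outlying libraries.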

How the results depend on the processing

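No paired analysis was possible because the library numbers in the expression table do not match the replicate numbers of the labels. The scaling changed the most. For the members called, with the scaling exchanged (spike-ins for lines, as deposited for CYC065), the counts were 9 for WT and 8 for S62A against WT, 0 higher and 9 lower for the mean of the MYCN lines, 5 higher and 5 lower with CYC065, and for the interaction 8 in WT, 6 in T58A, 5 in S62A, 6 in T58A S62A, and 4 higher and 4 lower in the mean. Of all genes, with the scaling exchanged, 1.10% were higher and 91.2% lower in the mean of the MYCN lines. The shares were 46.9% and 39.8% with CYC065, and 13.0% and 20.3% in the mean interaction. With libraries centred on their median, CYC065 gave 5 higher and 5 lower. The interaction then gave 6 in WT, 6 in T58A, 4 in S62A, 5 in T58A S62A, and 4 higher and 3 lower in the mean. With spike-ins averaging 50 FPKM or more, 6 were called with CYC065 in T58A, and the interaction kept 0 in WT, 1 in T58A, 1 in S62A, 0 in T58A S62A, and 0 higher in the mean. A required change of 1.5-fold left 2 in WT, 3 in T58A, 4 in S62A, 2 higher and 0 lower in the mean against SH-EP, and 1 each in T58A and S62A against WT. The interaction in WT counted 1 with no filter, 6 at a mean of 5 FPKM, and 0 with only the groups compared, where T58A counted 1, and a pseudocount of 1 gave 1 lower in its mean. For the other counts here and in the next paragraph, shares of all genes are not given. Those counts describe the settings and are no result about the members.

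Without single libraries, the counts ran from 3 to 5 for WT against SH-EP, 0 to 1 lower for the mean of the MYCN lines, 2 to 4 for T58A S62A against WT, and for the interaction 0 to 7 in WT, 1 to 2 in T58A, 1 to 2 in T58A S62A, and 0 to 1 lower in the mean. CDK6/CDK4 ran from 0.37 to 0.50 between lines and from 0.13 to 0.17 with CYC065. Its exact permutation p, not adjusted, fell under 0.05 in 1 of 15 such fits between lines and in 4 of 30 with CYC065.

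Signs turned with the scaling exchanged as follows. Against SH-EP, the mean change was -1.15 for CDK2, -0.90 for CCNE2, -0.83 for CCNA2, -1.10 for CDK4, -0.68 for CDK6, -1.22 for CCND3, -1.02 for CDKN1B, and -0.63 for CDC25A. Against WT in T58A it was 0.14 for CCNE1, 0.0454 for CCNE2, 0.26 for CDK4, 0.12 for CCND3, 0.0555 for CDKN1B, and 0.25 for CDC25A. In S62A it was -0.67 for CDK2, -0.45 for CCNE2, -0.555 for CCNA2, -0.0367 for CDK6, and -0.36 for CDKN1B, and in T58A S62A 0.24 for CCNE2, 0.30 for CDK4, 0.26 for CCND3, and 0.39 for CDKN1B. With CYC065 it was 0.39 for CDK2, 0.55 for CDK4, 0.70 for CDK6, 0.25 for CCND1, and 0.54 for CCND3, and with median centring 0.55, 0.72, 0.87, 0.42, and 0.71. Without single libraries, 6 changes against WT that had not passed the threshold turned sign within ranges of -0.0146 to 0.054 and -0.019 to 0.1743 for CDK2 in S62A and T58A S62A, -0.1094 to 0.0104 for CDK4 and -0.0079 to 0.034 for CCND1 in T58A, -0.0813 to 0.0328 for CDKN1B in T58A S62A, and -0.0402 to 0.0226 for CDC25A in S62A. The cause of these changes was not tested. Absolute depth is unknown, and 3 libraries in a group limit the precision.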
